A study of Triticum aestivum with 34 samples.

Results

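Gene expression was compared between central spikelets of wheat (Triticum aestivum) taken on day 12 and on day 9, counted from the terminal spikelet stage, when the last spikelet of the ear appears. The compared features were the gene models with an FPKM of at least 1 in at least 2 of the 6 central libraries of these days, which gave 56475 of the 162233 models in the deposited table. FPKM is a fragment count scaled for transcript length and library total, so levels can be compared between genes. All plants were of the genotype shimai22 and untreated, and each day had 3 libraries made from whole spikelets of the central position of the ear. The corresponding libraries of basal spikelets, 3 on day 9 and 3 on day 12, served as a reference for the same interval at another position. Libraries of days 6, 15, 21 and 27 are used below only to place a level in its course. Central spikelets of day 21 and basal spikelets of day 15 had only 2 libraries each. The pooling of plants, and whether replicates came from separate plants, were not stated, so p-values measure only the spread between these samples, which may be technical. The hour of the day at which spikelets were taken was not stated either.

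A wheat spikelet carries several florets between a pair of glumes, and each floret has a lemma, a palea, lodicules, stamens and a pistil. In the interval after the terminal spikelet stage the floral organs grow out, the anthers form their layers, and the cells that will become pollen go through meiosis. The tapetum, the innermost anther layer, feeds these cells, secretes lipid and protein for the pollen wall, and is then broken down. MADS-box transcription factors set the identity of floral organs, and the green outer organs build up photosynthesis as they grow. Bread wheat has 3 related subgenomes, A, B and D, so most genes occur as near-identical copies. The sources used here do not say where reads common to such copies were counted, which limits what the value of 1 copy can show.

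The 6 libraries held 99070815 to 118767608 estimated counts each, with 51942 to 54008 models at an FPKM of at least 1. Between 0.92 and 1.07% of the counts of a library fell on its 10 strongest models. Pearson correlations of log levels between libraries, taken across genes, were 0.9818 to 0.9854 within a day and 0.9242 to 0.944 between the days. Floral markers were present. Of the AP1 and FUL-like class 6 of 6 models were tested, of the B class 8 of 12, and of the C, D and AGL6 classes 10 of 12. All of these reached an FPKM of 1 on both days, as did 49653 of the 56475 tested models. Testing itself required that level in at least 2 of the 6 libraries, so these counts are no test of tissue identity. Tapetum, meiosis and photosynthesis genes were present together, as is usual for a whole organ. In such bulk samples fewer cells of a type and less RNA per cell cannot be told apart.

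Many genes changed within these 3 days, most by a modest amount. With edgeR's quasi-likelihood test and Benjamini-Hochberg adjustment at 0.05, 19005 of the 56475 models were called, which is 33.7%. Of these, 10014 (17.7%) were higher on day 12 and 8991 (15.9%) were lower, and the median log2 difference over all tested models was -0.02. Large changes were mostly rises. More than 2-fold changes were called for 3456 models (6.12%) upwards and 1696 models (3.0%) downwards, and more than 4-fold changes for 1085 upwards and 198 downwards. On day 9, 75 of the called models were at 0 in every library, against 3 that were at 0 on day 12. A model that reached the required level on day 12 alone had to be high there, and 3806 models entered in that way, against 2300 that entered through day 9 alone. Without a test, the FPKM of the 2 days did not overlap for 26.3% of the models with day 12 above and 25.6% with day 12 below, shares against which each statement on overlap below can be read. Gene groups are therefore described below by the 49653 models that reached the level in at least 2 libraries on both days, of which 15.6% were called higher and 16.2% lower.

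**Figure D1:**
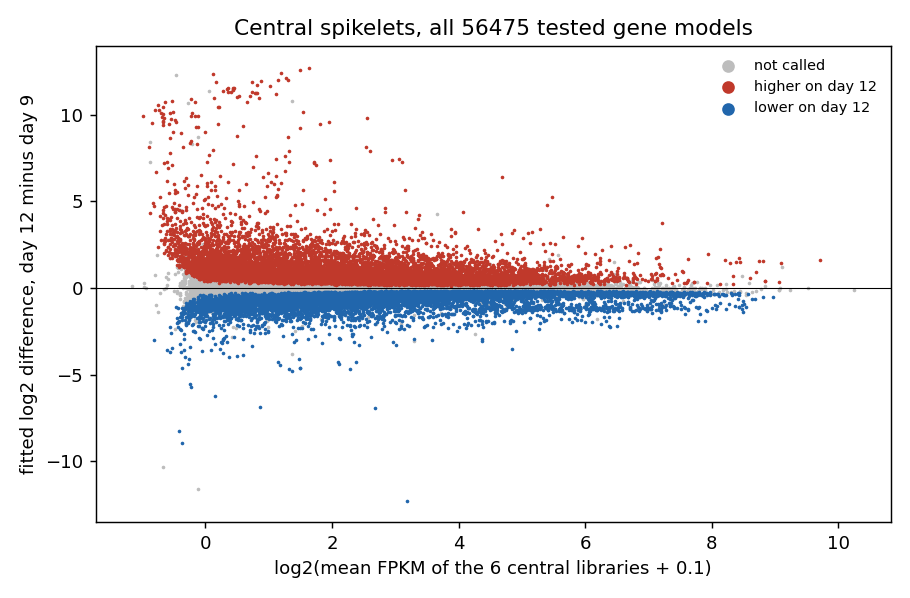
Fitted log2 difference between day 12 and day 9 (vertical axis) against mean level, as log2 of the mean FPKM plus 0.1 (horizontal axis), for each of the 56475 tested models in central spikelets. Red points are the 10014 models called higher on day 12, blue points the 8991 called lower and grey points the others, and the largest differences are rises of genes with low mean levels.

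The genes with the largest rises were mostly at or near 0 on day 9, and most peaked on day 15 and were lower again on day 21. Several have relatives known from anthers. A gene for a GDSL esterase/lipase of the At3g09930 type, an enzyme of a family that cleaves lipid esters, was TraesCS7A03G1306500 on chromosome 7A from 719762793 to 719764597. Its FPKM was 0 in the 3 libraries of day 9 and 7.55, 4 and 4.77 on day 12, at least 68.9-fold higher against a floor of 12 counts per library (edgeR adjusted p = 8.533e-11). The central level then reached 15.2 on day 15 and fell to 0.03 on day 21, while basal spikelets showed 0.02 on day 12 and 4.68 on day 15. Tested models with this description on chromosomes 7A, 7B and 7D numbered 18, and all 18 were called higher, with 15 of them at 0 on day 9. Copies of this kind may share reads and are not independent. A second gene at 0 on day 9 encoded a cold shock protein like CS66, a dehydrin-type protein (TraesCS3D03G0862400, chromosome 3D, 505972284 to 505973700). It stood at 7.06, 3.94 and 7.13 on day 12, at least 75.9-fold higher (adjusted p = 2.475e-12), and at 19.1 on day 15. The third was a sugar transporter like SWEET6b, of a family that lets sugars leave cells (TraesCS2B03G0118800, chromosome 2B, 30296204 to 30298272). It read 5.24, 3.1 and 4.36 on day 12, at least 45.4-fold higher (adjusted p = 9.615e-12), and all 8 tested models of that description on chromosome group 2 were called higher.

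The lipid-transfer protein C6 is known in rice from the tapetum, where it carries lipid for the pollen wall. Its wheat relative TraesCS6D03G0187100 (chromosome 6D, 75537041 to 75538346) had an FPKM of 0, 0 and 0.03 on day 9 and 14.9, 7.53 and 12.25 on day 12 (edgeR adjusted p = 6.048e-11). All day 12 libraries stood far above all day 9 libraries, and the central mean was 56.1 on day 15 and 0.33 on day 21. A cytochrome P450 of the 87A3 type (TraesCS2D03G0904400) went from at most 0.03 to 9.99, 4.93 and 7.55 and on to 26.2 on day 15. A HOTHEAD gene (TraesCS6A03G0693700), named for an Arabidopsis oxidoreductase that keeps floral organs from fusing, went from at most 0.02 to 6.04, 6.12 and 8.18. No fold is given for these 3 genes, since their day 9 level rests on a handful of counts. An exopolygalacturonase, an enzyme that trims pectin (TraesCS7D03G0938200), rose likewise, with 0 to 0.09 on day 9 and 3.42, 3.72 and 4.39 on day 12.

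The other genes with large rises were more varied. A lipid-transfer protein named DIR1, after an Arabidopsis protein of systemic resistance (TraesCS1A03G0439600, chromosome 1A, 293855087 to 293856007), read 0.41, 0.65 and 0.72 on day 9 and 56.75, 36.73 and 59.28 on day 12. This was a log2 difference of 6.39 ± 0.47 (SE, adjusted p = 2.095e-12), and the level reached 205 on day 15. A BURP domain protein (TraesCS2D03G0947600, chromosome 2D, 536907056 to 536908389) went from 3.22, 1.97 and 1.49 to 97.48, 67.87 and 95.81, a log2 difference of 5.27 ± 0.70 (adjusted p = 3.888e-06). It was the most abundant gene of this set, with a mean of 271 on day 15. An alpha carbonic anhydrase, which interconverts carbon dioxide and bicarbonate (TraesCS7A03G0927200), rose from 0.05 to 0.18 up to 12.58 to 20.25, and an aquaporin of the NIP4-1 type, a membrane channel (TraesCS3A03G0019300), from 0 to 0.07 up to 4.59 to 7.29. Of 6 tested models with the carbonic anhydrase description on chromosome group 7, 4 were called higher. A protease inhibitor (TraesCS2A03G0987800) went from 0, 0.24 and 0 to 16.9, 17.1 and 14.96, and a subtilisin-like protease SBT2.5 (TraesCS2D03G0884800) from a mean of 2.54 to 17.7, a log2 difference of 2.79 ± 0.37. The lectin-type Hessian fly response gene Hfr-2 (TraesCS4B03G0905300) went from 0.1, 0.08 and 0.14 to 7.46, 4.48 and 4.66, but was already at 7.02 to 8.44 in basal spikelets on day 9. A glutathione peroxidase (TraesCS2B03G1512800), an antioxidant enzyme, read 22.66, 22.64 and 0.16 on day 12 against 0.04 to 0.12 on day 9, so 1 library of day 12 stood near the day 9 level. In basal spikelets its values ran from 0.03 to 25.75 on day 6, 0.05 to 20.28 on day 12 and 0.11 to 24.69 on day 15. Its level thus varied widely between libraries of 1 group, and a change with the day cannot be told apart from that. Among the 12 genes with the largest rises, replicate 2 of day 12 had the lowest value of its group in 9, and among the 75 called models at 0 on day 9 it was the lowest in 56. Leaving it out changed no call among these 12 genes.

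**Figure D2:**
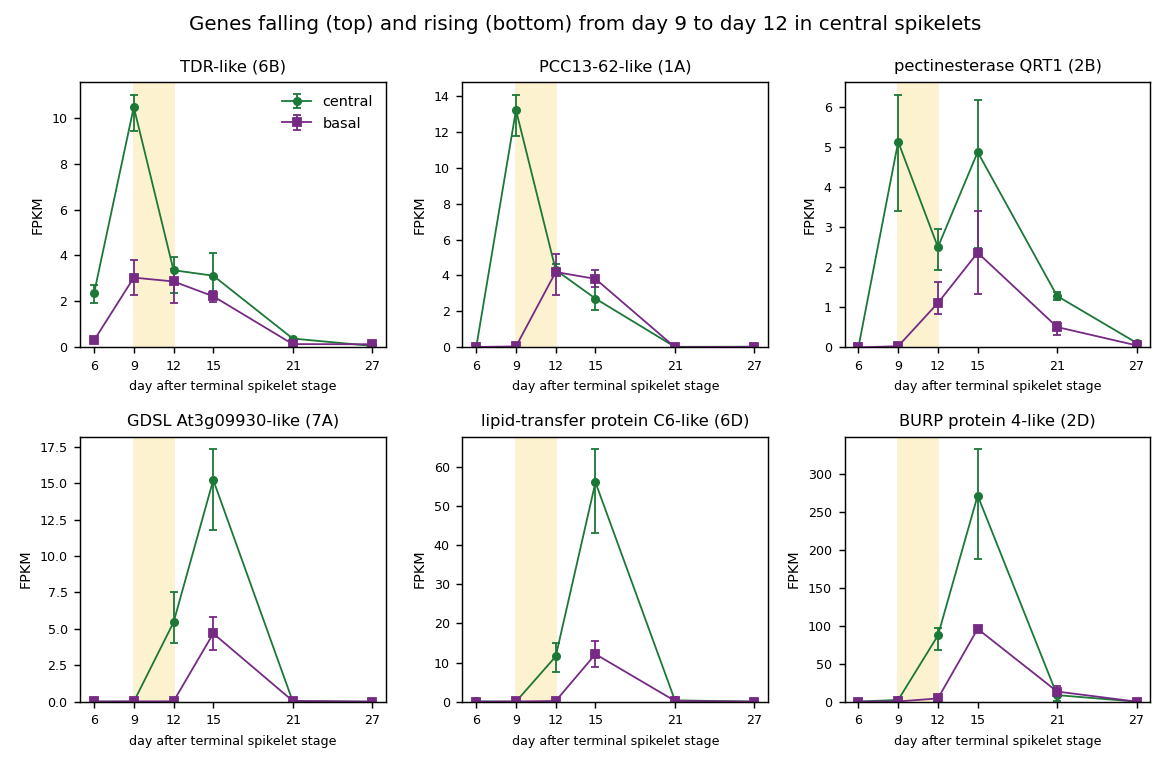
FPKM (vertical axes) by day after the terminal spikelet stage (horizontal axes) in central (green circles) and basal spikelets (purple squares), as group means with bars from the lowest to the highest library, and the interval from day 9 to day 12 shaded. The top genes had central means of 2.36, 0.02 and 0.01 on day 6 and were high by day 9, and the bottom genes rose between days 9 and 12 and peaked on day 15.

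Among genes of early anther development and of meiosis, more were called lower than higher. Of the 46 tapetum and anther models present on both days, out of 182 in the table and 55 tested, 16 were called lower and 4 higher, against 16.2% and 15.6% of all such models. The median log2 difference of this list was -0.07, against -0.03 over all such models, so its typical member hardly moved. TDR, a helix-loop-helix factor needed for tapetum breakdown in rice, had a relative at TraesCS6B03G0225300 (chromosome 6B, 76707462 to 76710464). Its FPKM was 9.42, 10.97 and 10.99 on day 9 and 2.36, 3.95 and 3.77 on day 12, with no overlap, a log2 difference of -1.65 ± 0.23 (edgeR adjusted p = 4.45e-06). All 6 tested models with this description on chromosome group 6 were called lower. UDT1, an earlier tapetum factor in rice, had a relative, TraesCS2A03G0452800, that fell from 1.67, 1.88 and 1.97 to 0.48, 0.8 and 0.68 after a central mean of 8.32 on day 6. A MYB80-like model (TraesCS2D03G1217100LC), named after a tapetum factor of Arabidopsis, read 3.15, 2.29 and 2.44 and then 0.43, 0.89 and 1.02, with an adjusted p of 0.01736. That call was lost without day 9 replicate 1 (adjusted p = 0.06499) or day 12 replicate 1 (adjusted p = 0.09426), and with DESeq2 (adjusted p = 0.6088).

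Other genes that were high on day 9 fell with them. Peroxidase 40, a cell wall enzyme of the Arabidopsis tapetum, was represented by TraesCS5D03G0743200, which read 21.45, 32.93 and 24.37 on day 9 and 3.7, 9.09 and 4.09 on day 12, a log2 difference of -2.23 ± 0.37. A lipid-transfer protein of the 2P type (TraesCS1B03G0554500) went from a mean of 29.8 to 6.73, and a Zm38-like gene, for a MYB factor first named in maize (TraesCS4D03G0476500), from 8.39 to 1.33. The peroxidase 40 and Zm38-like genes were already at central means of 25.5 and 6.81 on day 6. Of 5 tested models with the 2P description on chromosome group 1, 3 were called lower and 2 higher. A 60 kDa jasmonate-induced protein (TraesCS5A03G1289500) read 13.81, 13.83 and 13.72 on day 9 and 1.95, 3.08 and 3.02 on day 12, after a central mean of 1.82 on day 6. An invertase inhibitor, of the proteins that block sucrose cleavage (TraesCS2A03G1071100), went from a mean of 8.48 to 1.28.

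Of the 40 meiosis models present on both days, out of 64 in the table, 14 were lower and 3 higher, and the summed FPKM of the meiosis list went from 335.3 to 354.6 on day 9 to 276 to 288.4 on day 12. PAIR2, which helps chromosomes pair in rice, fell at TraesCS5D03G0668600 (chromosome 5D, 393836844 to 393844170) from 9.38, 12.04 and 9.69 to 3.1, 4.2 and 3.97, a log2 difference of -1.48 ± 0.22 (adjusted p = 6.531e-06). Of 3 tested models of that description on chromosome group 5, 2 were called lower, and the highest log2 difference was 0.47. SPO11-1, which makes the DNA breaks that start recombination, went up at TraesCS5B03G0985500 from 1.03, 1.1 and 1.23 to 2.42, 2.47 and 2.78, a log2 difference of 1.18 ± 0.15 (adjusted p = 6.48e-07). These 2 meiosis genes therefore changed in opposite directions, and in neither did the libraries of the days overlap.

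Genes of dividing and growing cells fell as groups. Core histones package newly copied DNA, and their summed FPKM went from 41299 on day 6 and 23528 on day 9 to 11359 on day 12 and 8547 on day 15 in central spikelets. Of 253 core histone models present on both days, 226 were called lower and 1 higher, with a median log2 difference of -1.15 against -0.03 over all such models. Histone H2B.10 (TraesCS3B03G0208900, chromosome 3B, 70331331 to 70331738) read 505.4, 556.1 and 423.9 on day 9 and 209, 221.7 and 230.2 on day 12, a log2 difference of -1.18 ± 0.23 (edgeR adjusted p = 0.000275). All day 12 values were below all day 9 values. A histone H3.2 model (TraesCS6B03G0194400) fell from 18.41, 24.34 and 20.16 to 0, 0 and 7.87, and an H2A.1-like model (TraesCS6B03G0195200) from 7.26, 8.28 and 1.2 to 0.59, 1.03 and 0.88. Both are copies among several with the same description, so their single values may reflect how shared reads were placed, which was not tested.

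Of 322 cell division models present on both days, 142 were lower and 27 higher, with a median of -0.38. A cyclin B1-5, a driver of entry into mitosis (TraesCS1A03G0768800), went from 11.54, 12.2 and 10.69 to 4.8, 3.79 and 6.02, a log2 difference of -1.25 ± 0.20, and all 6 tested models of that description on chromosome group 1 were lower. Of 414 cytosolic ribosomal protein models, 275 were lower and 2 higher, at a smaller median of -0.30. Their summed FPKM was 42527 to 44725 on day 9 and 35130 to 36119 on day 12. The largest fall of that list with a level above 5 FPKM was at a ribosomal protein L11 model (TraesCS1B03G0394800), which read 6.64, 4.13 and 5.06 and then 1.95, 0 and 1.13. That call, at an adjusted p of 0.04401, was lost in 5 of the 6 fits without 1 central library and also without basal day 9 replicate 2 or basal day 12 replicate 3, with adjusted p up to 0.1649, and with DESeq2 (adjusted p = 0.4852).

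**Figure D3:**
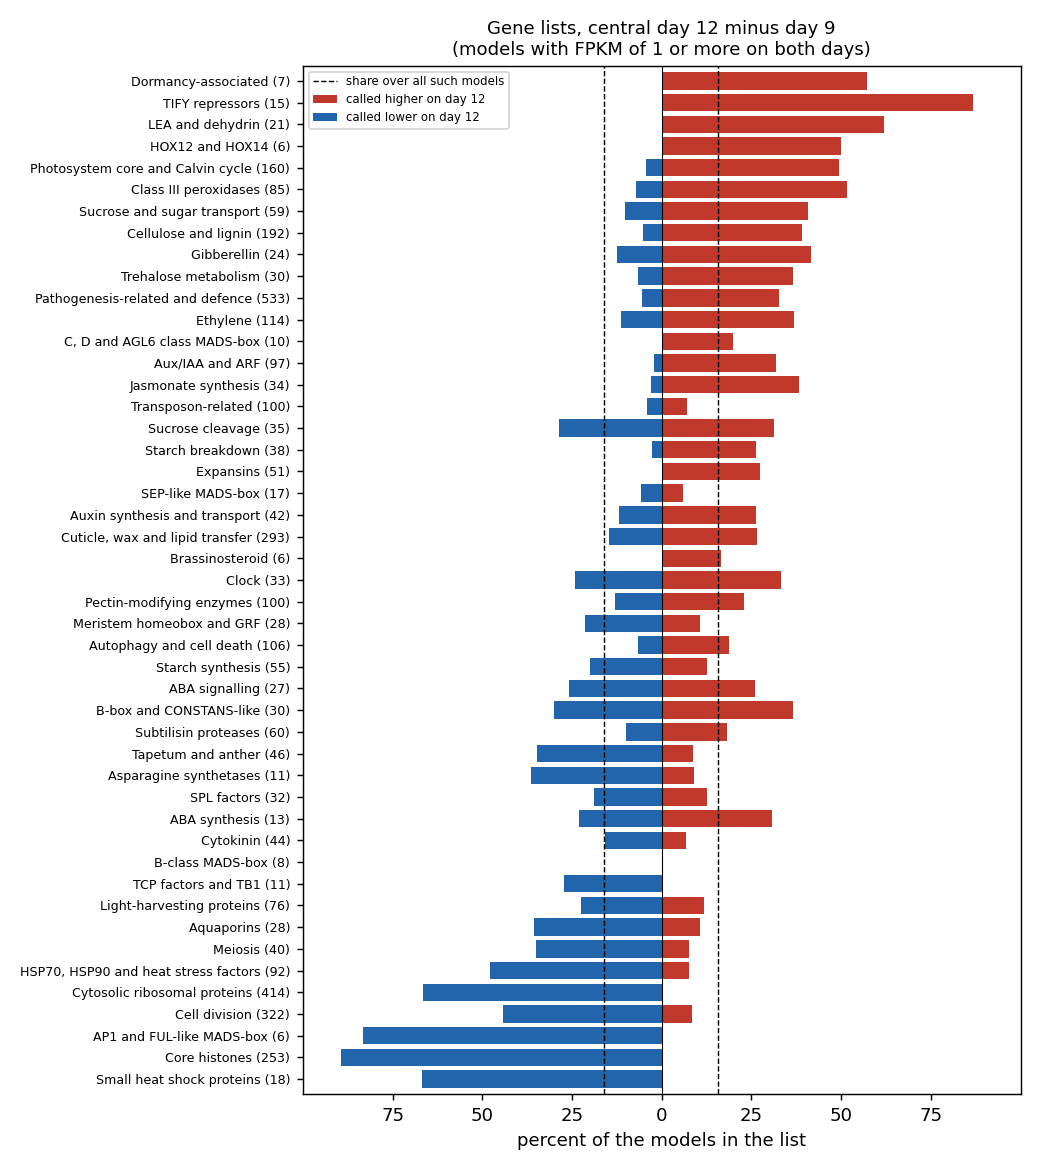
Share of the models of each gene list called higher (red, to the right) or lower (blue, to the left) on day 12, in percent, with the number of models that reached the required level on both days in brackets, for lists of at least 6 such models. Dashed lines mark 15.6% and 16.2% over all such models, and histones, small heat shock proteins, AP1 and FUL-like genes and ribosomal proteins lie mostly to the left and TIFY repressors, late embryogenesis abundant (LEA) proteins and dormancy-associated proteins to the right.

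Among the floral regulators, the AP1 and FUL-like MADS-box genes, which promote the change to floral meristems, were lower on day 12 than on day 9. Their summed FPKM in central spikelets had means of 269.4 on day 6, 279.6 on day 9, 211.8 on day 12 and 281.5 on day 15. The lower level of day 12 was thus not kept on day 15. Of the 6 tested, 5 were called lower and 0 higher by edgeR, with 0 higher at an unadjusted p under 0.05 and 0 higher by DESeq2. VRN-A1, the vernalization gene of this class (TraesCS5A03G0935400, chromosome 5A, 589259335 to 589271297), read 111, 111.2 and 116.1 on day 9 and 86.44, 81.25 and 85.1 on day 12, a log2 difference of -0.43 ± 0.12 (adjusted p = 0.007452). The MADS18 copies on 2A (TraesCS2A03G0362900) and 2D (TraesCS2D03G0379400) went from means of 29.4 and 22.1 to 19.1 and 14.8, and an AP1-like gene on 5D (TraesCS5D03G0894800) from 38.1 to 28.2. The libraries of the days did not overlap for any of these 4 genes. TaVRT-1 on 5B (TraesCS5B03G0986000) went from 55.6 to 45.3 with an adjusted p of 0.03557, a call that was lost without any 1 of the 12 libraries of days 9 and 12 (adjusted p 0.05145 to 0.1218) and under DESeq2 size factors. A MADS15-like gene (TraesCS2D03G0605600), at 21.7 and then 20.2, was not called.

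Of the 8 tested B-class models, which specify petals and stamens, none was called by edgeR or DESeq2, and 1 was lower at an unadjusted p under 0.05 and with limma. Of 10 models of the C, D and AGL6 classes, which act in stamens, carpels and ovules, 2 were higher and 0 lower, with 2 lower at an unadjusted p under 0.05 and 0 lower by DESeq2. The AGL6-D model (TraesCS6A03G0697000) went from 29.07, 33.21 and 21.56 to 44.01, 35.19 and 37.04, with an adjusted p of 0.03616, a call that was lost without day 9 replicate 1 (0.05217) or replicate 3 (0.187) or day 12 replicate 1 (0.1477). Of 17 SEP-like models, cofactors of the other classes, 1 was higher and 1 lower. MADS1 (TraesCS4A03G0160400) went from a mean of 27.3 to 36.2 (adjusted p = 0.03238), which was lost without day 9 replicate 2 (0.07774) or 3 (0.1087) or day 12 replicate 1 (0.08655). A MADS34-like gene (TraesCS5B03G0986100) went from 7.33 to 5.31 (adjusted p = 0.01252), which was lost without day 9 replicate 1 (0.08043) or day 12 replicate 1 (0.07763) or 3 (0.05492).

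SPL factors respond to age and shape the ear, and of 32 present on both days 6 were lower and 4 higher, shares near those over all models present on both days. SPL5 (TraesCS6D03G0318300) went from 2.15, 3.03 and 3.08 to 1.2, 1.2 and 1.08. TCP factors restrain growth of organs and branches, and of 11 present on both days 3 were lower and 0 higher, with 1 higher at an unadjusted p under 0.05 and 0 by DESeq2. A TCP21-like gene (TraesCS6B03G1277800) went from a mean of 10.9 to 7.33. A knotted-1-like gene (TraesCS4D03G0792700), a homeobox gene, rose from 1.75, 1.29 and 2.05 to 5.17, 5.75 and 5.01, and WUSCHEL-Like-B1 (TraesCS1A03G0127900), named after the stem cell factor of Arabidopsis, fell from 3.28, 4.02 and 3.26 to 1.44, 1.81 and 1.72. Of the 6 tested HOX12 and HOX14 models, which encode homeodomain-leucine zipper factors, 3 were higher and 0 lower, with 0 lower at an unadjusted p under 0.05 and 0 by DESeq2. HOX12 on 4A (TraesCS4A03G0078800) read 1.41, 1.63 and 1.19 on day 9 and 2.86, 2.75 and 2.12 on day 12. The HOX12-like copy on 4B (TraesCS4B03G0697100) went from a mean of 2.16 to 4.02 and a HOX14-like gene on 2A (TraesCS2A03G0392300) from 2.13 to 4.02. Of 3 tested models with the HOX14-like description on chromosome group 2, 1 was called higher. The named HOX genes stood far higher in basal spikelets on both days, with HOX12 on 4A at 46.55 to 53.45 on day 9 and 25.92 to 29.38 on day 12.

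Photosynthesis genes split into those of carbon fixation and the photosystem cores, which rose, and those of light harvesting, which on balance did not. Photosystem cores convert light energy, and the Calvin cycle fixes carbon dioxide. Of 160 such models present on both days, 79 were higher and 7 lower, with a median of 0.54, and their summed FPKM went from 5640 to 6409 on day 9 to 9450 to 11177 on day 12. A small chain of RuBisCO, the carbon-fixing enzyme (TraesCS5D03G0414200, chromosome 5D, 269112350 to 269113317), read 327.6, 272.9 and 273.8 on day 9 and 814.7, 888.9 and 706.6 on day 12, a log2 difference of 1.45 ± 0.21 (edgeR adjusted p = 5.935e-06). All 6 tested models of this description on chromosome group 5 rose, and the mean reached 2373 on day 15. A copy on 2D (TraesCS2D03G0128800) rose from 3.41, 2.99 and 2.76 to 20.19, 23.86 and 19.1.

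Light-harvesting proteins hold the chlorophyll that collects light. Of 76 such models present on both days, 17 were lower and 9 higher, with a median of -0.22, and the summed FPKM was 4371 to 4873 on day 9 and 3707 to 4386 on day 12, so the days overlapped slightly. One light-harvesting gene of photosystem II type 1 (TraesCS6D03G0175200, chromosome 6D, 69621989 to 69623064) fell from 66.35, 60.39 and 65.41 to 12.75, 13.99 and 11.46, a log2 difference of -2.34 ± 0.18 (adjusted p = 1.058e-10), and stood at 284 on day 15. Another on 6B (TraesCS6B03G0305700) went from 9.58 to 0.997 and then to 68.0 on day 15. A photosystem I protein of the same family (TraesCS6D03G0702400) rose from 1.07, 0.93 and 1.08 to 3.02, 3.27 and 3.87. In basal spikelets 56 of the 80 tested light-harvesting models were called higher on day 12, and for 42 of the 80 the central step was called below the basal step. The summed level of the list in central spikelets was 1034 on day 6 and 17843 on day 15. Several genes of this kind are known to cycle over the day, and the part of the hour of sampling was not tested.

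Cell wall genes of the cellulose and lignin, peroxidase and expansin lists were higher on balance, while those of pectin and of the surface changed little in summed level. Cellulose and lignin stiffen the wall, and of 192 such models present on both days 75 were higher and 10 lower, with a median of 0.28. A phenylalanine ammonia-lyase, the entry enzyme to lignin and other phenylpropanoids (TraesCS1A03G0230000), went from 0.49, 0.47 and 0.56 to 5.5, 4.08 and 3.61, a log2 difference of 3.10 ± 0.44 (edgeR adjusted p = 4.833e-06). Class III peroxidases cross-link wall polymers, and of 85 present on both days 44 were higher and 6 lower, with a median of 0.42. A peroxidase 4-like gene (TraesCS5B03G0408000) rose from 1.12, 0.94 and 0.7 to 4.83, 5.43 and 5.25. Later, on day 21, its mean was 175, from libraries at 89.7 and 260.1. Of 51 expansin models, which loosen walls, 14 were higher and 0 lower, with 0 lower at an unadjusted p under 0.05 and 0 by DESeq2. Of 100 pectin-modifying models, 23 were higher and 13 lower, against 15.6% and 16.2% over all models present on both days. Of 293 models of cuticle, wax and lipid transfer present on both days, 78 were higher and 43 lower, while 55 further models of that list entered through day 12 alone and 21 tested models were at 0 on day 9. The pectin and cuticle lists had medians of 0.05 and 0.07. Their summed FPKM overlapped between the days. It was 814.6 to 869.7 and then 815.9 to 857.2 for pectin, and 6841 to 7143 and then 6557 to 7007 for cuticle, wax and lipid transfer.

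Sugar genes changed in both directions. Sucrose reaches a growing organ through transporters and is cleaved there by invertases or sucrose synthase. Of 59 sugar transport models present on both days, 24 were higher and 6 lower, with a median of 0.37. A SWEET11-like gene (TraesCS7B03G0434800) went against the majority, from 16.49, 15.21 and 17.06 to 3.85, 5.62 and 5.2 (adjusted p = 0.02079), a call that was lost without day 12 replicate 1 (0.08706) or replicate 3 (0.0558). Of 35 sucrose cleavage models, 11 were higher and 10 lower. Sucrose synthase 1 (TraesCS7A03G0091500, chromosome 7A, 19954447 to 19960111) rose from 1.28, 1.04 and 1.25 to 6.64, 7.83 and 6.26, a log2 difference of 2.53 ± 0.22 (edgeR adjusted p = 8.677e-10). A cell wall invertase, insoluble beta-fructofuranosidase 4 (TraesCS3A03G1217300, chromosome 3A, 735465405 to 735469106), fell from 12.28, 12.01 and 12.45 to 3.61, 4.67 and 4.16, a log2 difference of -1.57 ± 0.20 (adjusted p = 7.842e-07). For both genes the 3 libraries of one day lay wholly apart from those of the other.

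Trehalose metabolism makes a signal of sugar supply, and of 30 models 11 were higher and 2 lower. A trehalose-phosphate phosphatase (TraesCS6A03G0673800) rose from 5.54, 3.83 and 4.61 to 17.89, 15.19 and 15.42. Of 55 starch synthesis models, 7 were higher and 11 lower, close to the shares over all models. Large subunits of ADP-glucose pyrophosphorylase, which makes the substrate of starch, moved apart, with the 1B copy (TraesCS1B03G1206000) falling from a mean of 59.7 to 25.2 and the 5D copy (TraesCS5D03G1065400) rising from 10.5 to 17.8. Of 38 starch breakdown models, 10 were higher and 1 lower. Beta-amylase 3, a starch-degrading enzyme (TraesCS1D03G0544300), rose from 6.94, 5.81 and 6.78 to 17.75, 15.86 and 14.64. An asparagine synthetase, which stores nitrogen in asparagine (TraesCS5A03G0421300), fell from 28.01, 29.24 and 31.5 to 11.53, 11.48 and 10.19, and 4 of the 11 models of that list were lower and 1 higher.

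TIFY genes of the jasmonate pathway rose. Jasmonate is a hormone of stress, flower opening and stamen maturation, and TIFY (JAZ) proteins repress its response genes and are themselves induced by it. Of 50 TIFY models in the table, 32 were tested and 28 called higher, but 17 of the 32 entered through day 12 alone. Of the 15 present on both days, 13 were higher and 0 lower by edgeR, with 0 lower at an unadjusted p under 0.05 and 0 by DESeq2, and the median was 1.15. A TIFY 9-like gene (TraesCS2D03G0662000, chromosome 2D, 363846880 to 363849615) rose from 0.26, 0.12 and 0.36 to 3.29, 2.76 and 3.09, a log2 difference of 3.61 ± 0.31 (edgeR adjusted p = 9.162e-10). The abundant TIFY 10b-like gene TraesCS2D03G0368800, chosen after its values were seen, rose from 15.61, 13.38 and 16.12 to 42.13, 40.34 and 38.83. In basal spikelets the latter was at 50.68 to 52.01 on day 9 and 33.93 to 40.14 on day 12, so it was lower there on the later day. A TIFY 10c-like gene (TraesCS5D03G0513000), also chosen after its values were seen, rose from 0.86, 0.65 and 1.42 to 6.84, 4.93 and 6.18 and was at 18.28 to 21.69 in basal spikelets on day 9. Of 34 jasmonate synthesis models present on both days, 13 were higher and 1 lower. Allene oxide synthase 1, an enzyme of that synthesis (TraesCS5D03G0913400), rose from 1.24, 1.12 and 1.5 to 3.42, 3.11 and 2.98, and a 9S-lipoxygenase 2-like gene, for an enzyme that oxidises fatty acids (TraesCS5D03G0868800), from 0.19, 0.14 and 0.14 to 3.28, 2.19 and 1.43. Whether this lipoxygenase acts in jasmonate synthesis was not tested.

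Genes linked to dehydration and dormancy rose as well. LEA proteins and dehydrins protect cells that lose water and often respond to abscisic acid (ABA). Of 130 such models in the table, 37 were tested and 16 of these entered through day 12 alone. Of the 21 present on both days 13 were higher and 0 lower, with 1 lower at an unadjusted p under 0.05 and 0 lower by DESeq2, and the median was 0.77. The dehydrin COR410 (TraesCS6D03G0573700, chromosome 6D, 350602823 to 350604300; chosen after its values were seen) went from 66.74, 53.77 and 59.74 to 175.6, 174.2 and 149.8, a log2 difference of 1.46 ± 0.11 (edgeR adjusted p = 1.401e-10). A group3 LEA gene (TraesCS4B03G0861800) rose from 0.23, 0.14 and 0.08 to 2.72, 3.62 and 4.39, and later to 187 on day 21. Of 7 dormancy-associated models present on both days, 4 were higher and 0 lower, with 0 lower at an unadjusted p under 0.05 and 0 by DESeq2. A dormancy-associated protein 1-like gene (TraesCS4A03G0646200, chromosome 4A, 554370898 to 554371993; chosen after its values were seen) went from 12.13, 10.63 and 11.75 to 73.22, 69.27 and 63.34, a log2 difference of 2.57 ± 0.13 (adjusted p = 7.078e-14). It was higher still in basal spikelets, at 103.3 to 149.2 on day 9 and 204.2 to 267.4 on day 12. A dormancy-associated protein 2-like model (TraesCS7B03G0340100LC) went from 0.27, 0.2 and 0.11 to 2.75, 2.16 and 3.23.

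The genes that make or sense ABA did not move as one group. Of 13 ABA synthesis models present on both days 4 were higher and 3 lower, and of 27 ABA signalling models 7 were higher and 7 lower. Over all models present on both days, 15.6% were higher and 16.2% lower. Zeaxanthin epoxidase, an early enzyme of ABA synthesis (TraesCS4B03G0305100), rose from 5.06, 4.56 and 4.5 to 10.18, 10.65 and 9.11. The single tested ABA 8'-hydroxylase, which inactivates ABA (TraesCS6D03G0607800), also rose, from 3.74, 3.61 and 3.58 to 7.25, 7.25 and 6.22. Among other hormones, 42 of 114 ethylene models were higher and 13 lower, 31 of 97 Aux/IAA and ARF models were higher and 2 lower, 11 of 42 models of auxin synthesis and transport were higher and 5 lower, and 10 of 24 gibberellin models were higher and 3 lower. An ERF109-like gene, of the ethylene response factors (TraesCS6D03G0702200), rose from 0.45, 0.45 and 0.46 to 5.19, 3.73 and 3.49, a log2 difference of 3.17 ± 0.29. A chitin-inducible gibberellin-responsive protein 2-like gene (TraesCS2A03G0395300) rose from 5.69, 5.68 and 5.19 to 19.56, 17.87 and 16.21, and a gibberellin-regulated protein 9-like gene (TraesCS7B03G1304300) fell from 62.66, 73.14 and 62.79 to 29.27, 28.03 and 30.68. Of 44 cytokinin models 7 were lower and 3 higher, and of 6 brassinosteroid models 1 was higher and 0 lower, with 0 lower at an unadjusted p under 0.05 and 0 by DESeq2. Pathogenesis-related and defence genes, a list of 533 models on both days, were higher in 175 and lower in 29, with a median of 0.22.

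Heat shock genes fell. These chaperones keep other proteins folded and respond to warmth. Of 18 small heat shock protein models present on both days 12 were lower and 0 higher by edgeR, with 1 higher at an unadjusted p under 0.05 and 1 higher by DESeq2, and the median was -1.26. One on 6B (TraesCS6B03G1056600, chromosome 6B, 655200825 to 655201905) fell from 8.75, 8.19 and 7.27 to 0.41, 0.44 and 0.3, a log2 difference of -4.38 ± 0.22 (edgeR adjusted p = 3.088e-14). One on 6A (TraesCS6A03G0823100) fell from 10.44, 9.94 and 8.88 to 0.81, 0.4 and 0.3. In both the days lay far apart. Of 92 models of HSP70, HSP90 and heat stress factors 44 were lower and 7 higher, and a heat shock cognate 70 kDa protein (TraesCS1A03G0718600) went from 36.6, 39.34 and 33.92 to 7.87, 10.42 and 9.32. The falls were steeper in basal spikelets, where the summed FPKM of small heat shock proteins went from 912.6 to 1040 on day 9 to 109.4 to 143.2 on day 12, against 220.3 to 247.1 and then 86.21 to 102.2 in central spikelets. The gene on 6B was at 50.09 to 56.02 in basal spikelets on day 9 and at 0.56 to 0.69 on day 12. Temperature at sampling was not in the labels, and its part was not tested.

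Several clock genes differed between the days. The plant clock sets morning genes such as LHY against evening genes such as GIGANTEA and PRR1 (TOC1), so their levels depend on the hour. LHY on 7B (TraesCS7B03G0535400, chromosome 7B, 331528307 to 331543222) read 35.22, 28.88 and 29.08 on day 9 and 8.77, 9.23 and 8.47 on day 12, a log2 difference of -1.82 ± 0.11 (edgeR adjusted p = 8.127e-13). GIGANTEA on 3A (TraesCS3A03G0253100, chromosome 3A, 84569357 to 84577866) read 4.77, 4.69 and 4.95 and then 16.44, 16.52 and 17.02, a log2 difference of 1.78 ± 0.07 (adjusted p = 1.61e-16). PRR1 on 6D (TraesCS6D03G0514700) rose from 5.78, 5.9 and 5.41 to 20.64, 20.96 and 20.4. LHY, GIGANTEA and PRR1 were chosen after their values were seen. The pseudo-response regulator APRR3 on 4D (TraesCS4D03G0224500) rose from 3.58, 3.62 and 3.49 to 15.28, 16.46 and 15.26. A MYB-related gene on 7B (TraesCS7B03G1286300, 745373381 to 745377175) had the largest fall of all genes named here, from 8.26, 9.59 and 9.65 to 0.36, 0.31 and 0.41, a log2 difference of -4.66 ± 0.16. Of 7 tested models with its description on chromosome group 7, 2 were called lower and 0 higher. An LNK4-like gene, of a family of clock coactivators (TraesCS1D03G0182500), fell from 14.65, 13.56 and 13.1 to 1.45, 1.4 and 1.89. A B-box 22-like gene, of zinc finger proteins that act in light responses (TraesCS3D03G0293200), rose from 2.69, 2.89 and 2.89 to 15.78, 15.63 and 14.32.

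In central spikelets LHY was low on days 6 and 12, at means of 5.70 and 8.82, and high on days 9 and 15, at 31.1 and 31.3 (TraesCS7B03G0535400). GIGANTEA was high on days 6 and 12, at 14.7 and 16.7, and low on days 9 and 15, at 4.80 and 6.35. On days 21 and 27 the levels were not opposed, with LHY at 45.75 and 44.28 and GIGANTEA at 14.25 and 12.16. In basal spikelets of day 9 LHY stood at 3.62 to 4.41 and GIGANTEA at 14.36 to 16.51. Central spikelets of day 12 had LHY at 8.47 to 9.23, above that basal level, and GIGANTEA at 16.44 to 17.02. Of 33 clock models present on both days 11 were higher and 8 lower, and of 30 B-box and CONSTANS-like models 11 were higher and 9 lower. The central libraries of day 9 thus differed from those of day 12, and from the basal libraries of day 9, in the levels of LHY and GIGANTEA. Whether this was a difference in clock phase was not tested. Every difference between day 9 and day 12 given here was measured across that contrast, and the part of the hour in it was not tested.

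**Figure D4:**
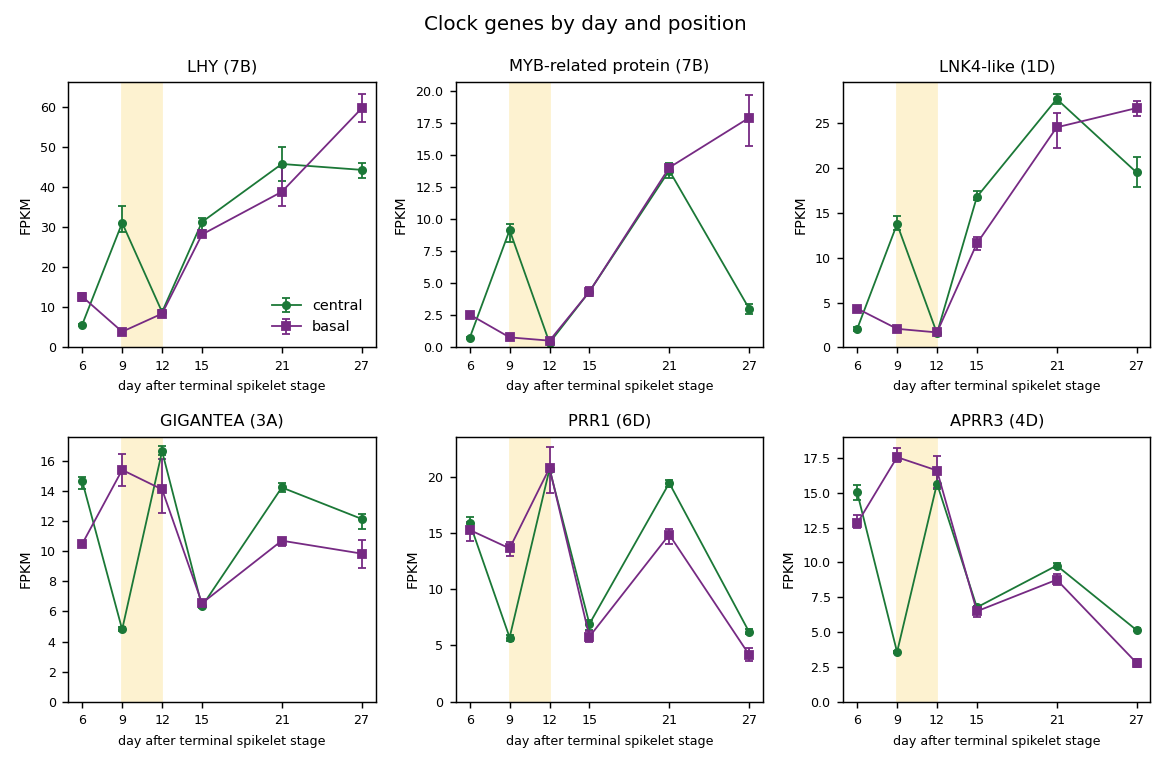
FPKM (vertical axes) of 6 clock genes by day after the terminal spikelet stage (horizontal axes) in central (green circles) and basal spikelets (purple squares), as group means with bars from the lowest to the highest library, and the interval from day 9 to day 12 shaded. In central spikelets the top genes were high on day 9 and low on day 12 and the bottom genes the reverse, with LHY at 31.1 and then 8.82 and GIGANTEA at 4.80 and then 16.7, while basal spikelets changed less between these days.

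The step from day 9 to day 12 was set against the same step in basal spikelets by a test of the difference between the steps. In basal spikelets 22.9% of the 56475 models were called higher on day 12 and 20.8% lower. The central step differed from the basal step for 12646 models (22.4%), lying above it for 5850 (10.4%) and below it for 6796 (12.0%). Of the 10014 models that were higher in central spikelets, 5104 were also called higher in basal spikelets and 665 called lower there, and of the 8991 lower models 4329 were also lower and 870 higher in basal spikelets. Among the both-day models, TIFY repressors had a median of 1.15 in central and -0.37 in basal spikelets, and 13 of 15 central steps lay above the basal ones. The HOX12 and HOX14 list had medians of 0.69 and -0.61, and LEA proteins and dehydrins 0.77 and 0.08. Small heat shock proteins fell more in basal spikelets, with medians of -1.26 and -2.16. Class III peroxidases rose more there, with 0.42 and 1.19, and 34 of 85 central steps lay below the basal ones.

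**Figure D5:**
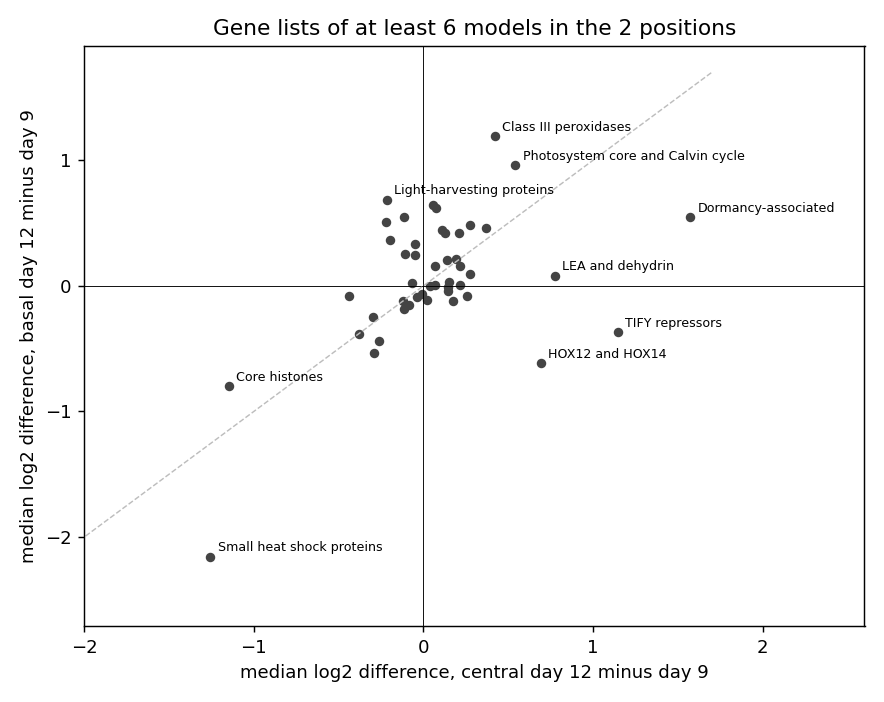
Median log2 difference between day 12 and day 9 of each gene list in central (horizontal axis) and basal spikelets (vertical axis), for lists of at least 6 models that reached the required level on both days, with the dashed line marking equal values. TIFY repressors and HOX12 and HOX14 lie right of and below the centre, and light-harvesting proteins lie left of and above it.

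The genes whose central step lay furthest below the basal step were on in central spikelets by day 9 and came on in basal spikelets between days 9 and 12. They were chosen by that difference between the steps, so this pattern follows in part from the choice. A gene like PCC13-62, named after a desiccation protein of a resurrection plant (TraesCS1A03G0224600, chromosome 1A, 87626153 to 87627395), read 13.8, 11.76 and 14.04 and then 4.11, 4.18 and 4.62 in central spikelets, and 0.08, 0 and 0.08 and then 2.9, 5.18 and 4.5 in basal spikelets. The steps differed by -7.71 ± 0.50 (edgeR adjusted p = 4.271e-13). An endo-1,3-beta-glucosidase GII-like gene, of enzymes that cut beta-glucans (TraesCS3B03G1317600), was at 6.63, 3.49 and 4.89 in central spikelets on day 9 and at 0 in all 3 basal libraries of that day. A P450 89A2-like gene (TraesCS7B03G0578600), an LRR extensin-like gene for a cell wall protein (TraesCS5A03G0991800) and dihydroflavonol 4-reductase, an enzyme of flavonoid synthesis (TraesCS3A03G0093800), had central means of 8.29, 11.7 and 6.95 on day 9 and basal values of at most 0.12. Of 8 tested models with the extensin-like description on chromosome group 5, 4 were called lower and 2 higher in central spikelets. For 6 of these 8 the central step lay below the basal step. QRT1, a pectinesterase that lets Arabidopsis pollen grains separate (TraesCS2B03G0480100, chromosome 2B, 185683096 to 185685694), stood at 3.39, 6.29 and 5.69 in central and at most 0.05 in basal spikelets on day 9. Its fall in central spikelets to 2.61, 1.92 and 2.96 (adjusted p = 0.0181) was lost without day 9 replicate 2 (0.09029) or 3 (0.05641) or day 12 replicate 2 (0.09171). With DESeq2 the central falls of PCC13-62-like (adjusted p = 0.0654), P450 89A2-like (0.3295), the extensin-like gene (0.1647) and QRT1 (0.195) were not called. These 6 genes had central means of at most 0.04 FPKM on day 6. The GDSL, P450 87A3 and C6-like genes described first had basal means of at most 0.17 on day 12 and 4.68, 7.14 and 12.1 on day 15 (TraesCS7A03G1306500, TraesCS2D03G0904400 and TraesCS6D03G0187100). They were chosen for their central rise, and a general lag of basal behind central spikelets was not tested. Hfr-2, chosen in the same way, was already at 7.02 to 8.44 in basal spikelets on day 9. A glycine-rich RNA-binding protein, the most abundant gene among those named for a rise above the basal step (TraesCS4B03G0041500, chromosome 4B, 16124182 to 16125149), went from 168.2, 177 and 135.6 to 576.6, 536.3 and 473.2 in central spikelets. Its central mean had been 428.4 on day 6 and was 125.5 on day 15, so its level went down and up between days. In basal spikelets it was at 523.2 to 705.8 and then 574.2 to 795.6, where the days overlapped.

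The further groups are given by their counts, to be read beside 15.6% higher and 16.2% lower over all models present on both days. Of 28 meristem homeobox and GRF models 3 were higher and 6 lower, of 28 aquaporins 3 were higher and 10 lower, of 60 subtilisin proteases 11 were higher and 6 lower, and of 106 autophagy and cell death models 20 were higher and 7 lower. Of 100 transposon-related models 7 were higher and 4 lower. Of the 3 SOC1 and SVP-like models present on both days, which act in flowering time, 1 was lower and 0 higher, with 0 higher at an unadjusted p under 0.05 and 0 by DESeq2.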

How the data were processed

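Messenger RNA was measured by RNA sequencing. Per the labels, total RNA was extracted with Trizol and samples with a RIN above 7 were used. Per the file headers and values, the authors deposited 1 table with estimated counts, whole numbers with no normalization, and FPKM values, which the authors scaled for transcript length and library total. Bowtie 0.12.2 and 2 mouse builds, mm8 and mm9, appear in the submitters' processing notes and cannot describe a wheat table. Which aligner, counter, strand setting and wheat build were used is not given in the sources used here. Among 45310 tested models of high confidence, 95.3% overlapped a RefSeq gene of the IWGSC RefSeq v2.1 assembly, against 6.8% after a shift of 5 Mb, so coordinates are given in that build.

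The count test was edgeR 4.0.16 in R 4.3.3, with TMM scaling and a mean for each of the 12 groups of the 34 libraries (glmQLFit with legacy = FALSE, glmQLFTest). Adjusted p-values are Benjamini-Hochberg over the 56475 models, called under 0.05 at any fold. Standard errors (SE) are the absolute log2 difference divided by the square root of F. The tests were checked on simulated data. Of small counts, 34.3 to 35.4% were multiples of 4, against 25% if spread evenly, so a group at 0 was given a floor of 12 counts per library, which covers counting error only. How many fragments underlie a count is not stated. Of the tested models 17.6% were low-confidence, and 896 joined several annotated genes.

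The compared models and the 49 gene lists were chosen with earlier results of these data known. Lists match words in the deposited names and descriptions, and some patterns were corrected to the deposited wording. Genes named were, among high-confidence called models with non-overlapping days and a mean of at least 5 FPKM, the 12 with the largest difference in each direction and the 6 for the position test, 1 per description. They were joined by up to 2 models per list and direction of at least 2 FPKM and the called models with the largest FPKM differences. Not every gene so chosen is printed, and genes chosen after their values were seen are marked. No sequence is printed. Alternatives were other scalings and filters, DESeq2, limma on log2(FPKM + 1) and log2(FPKM + 0.1), a replicate block and leaving out each library.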

Additional observations from a re-analysis of the deposited data

Results flagged for a closer look

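The genes below are given a closer look because their step from day 9 to day 12 differed between central and basal spikelets by edgeR's test of that difference (adjusted p under 0.05 over the 56475 models, of which 22.4% passed). Values are the central step minus the basal step on the log2 scale.

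Genes lower in central spikelets and higher in basal spikelets on day 12 were LHY on 7B (-2.87), a light-harvesting gene on 6B (-4.01), TCP21-like (-0.95), PCC13-62-like (-7.71), P450 89A2-like (-6.59), LRR extensin-like (-6.48), QRT1 (-6.07) and the GII-like glucosidase (-11.51). Dihydroflavonol 4-reductase, which was not called in central and was higher in basal spikelets, differed by -6.38. Genes higher in central and lower in basal spikelets were the TIFY 10b-like (1.92) and TIFY 10c-like genes (3.65), 9S-lipoxygenase 2-like (5.01), beta-amylase 3 (1.98), dehydrin COR410 (2.12), HOX12 on 4A (1.76), HOX12-like on 4B (1.84) and GIGANTEA (1.97).

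Among genes that rose in central spikelets and were not called in basal spikelets, the difference was 1.04 for SPO11-1, 1.23 for allene oxide synthase 1, 1.68 for the chitin-inducible gibberellin-responsive gene and 1.71 for the glycine-rich RNA-binding protein. It was 2.26 for APRR3, 2.10 for B-box 22-like, 3.59 for ERF109-like, 3.79 for TIFY 9-like, 4.86 for group3 LEA, 6.23 for Hfr-2 and 6.27 for DIR1. It was 8.20 for the C6-like gene, 8.97 for dormancy-associated protein 2-like, 9.55 for P450 87A3-like, 12.05 for SWEET6b-like and 12.66 for the GDSL gene. CS66-like, called higher in both positions, differed by 9.71. Sizes over about 5 rest on groups at or near 0, depend on the prior count of the fit and are no bounds. The calls for the GDSL gene, SWEET6b-like and dormancy-associated protein 2-like were lost without basal day 9 replicate 1, replicate 3 and replicate 3, and that for CS66-like without basal day 9 replicate 2 (adjusted p = 1 in each), since each left a basal group at 0. With no filter on low values the calls for CS66-like (adjusted p = 0.08826) and SWEET6b-like (0.08168) were lost too.

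Genes higher in both positions were phenylalanine ammonia-lyase (2.05), trehalose-phosphate phosphatase (0.97), dormancy-associated protein 1-like (1.68) and PRR1 (1.30), with larger central rises, and ABA 8'-hydroxylase (-1.06) and sucrose synthase 1 (-1.72), with smaller ones. The sucrose synthase 1 call was lost without basal day 9 replicate 2 (adjusted p = 0.06411) or replicate 3 (0.06911) and with limma on log2(FPKM + 0.1) (0.8319), and its sign reversed with limma on log2(FPKM + 1). Genes lower in both were the MYB-related gene on 7B (-4.02) and LNK4-like (-2.77), with larger central falls, and the small heat shock protein on 6B (2.04) and heat shock cognate 70 kDa protein (1.60), with larger basal falls.

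Among genes that fell in central spikelets and were not called in basal spikelets, the difference was -1.51 for TDR-like, -2.95 for MYB80-like, -2.06 for lipid-transfer protein 2P-like, -2.26 for Zm38-like, -2.66 for the 60 kDa jasmonate-induced protein and -3.28 for the invertase inhibitor. The floral factors MADS18 on 2A and 2D, MADS34-like and SPL5 differed by -0.61, -0.59, -0.73 and -1.28. The call for MADS18 on 2A was lost without central day 9 replicate 3, central day 12 replicate 1, basal day 9 replicate 3 or basal day 12 replicate 2 (adjusted p from 0.05238 to 0.07054). The SPL5 call was lost without basal day 9 replicate 2 (adjusted p = 0.05649) and with the older form of edgeR (0.08087). The MYB80-like call was lost without basal day 12 replicate 3 (adjusted p = 0.05857), with DESeq2 (0.5534) and with the older form of edgeR (0.1578). SWEET11-like differed by -2.90, the cell wall invertase by -1.44, asparagine synthetase by -1.27, gibberellin-regulated protein 9-like by -1.50, cyclin-B1-5-like by -0.92, the light-harvesting gene on 6D by -2.68 and H2A.1-like by -3.16. The H2A.1-like call was lost in 8 of the 12 fits that left out 1 library, with adjusted p up to 0.07856, with a replicate block (0.05296) and with limma on log2(FPKM + 1) (0.07148) or log2(FPKM + 0.1) (0.1233). The cyclin-B1-5-like call was lost without central day 12 replicate 2 (adjusted p = 0.05527) or basal day 12 replicate 3 (0.05734).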

How the results depend on the processing

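Other scalings, DESeq2, the older form of edgeR, limma, no filter, a filter over 34 libraries, the 6 libraries alone and leaving out low-confidence models kept the counts of calls within 1.5 times. With a filter at 5 FPKM, which tests fewer models (26950), 5900 were higher and 5452 lower, and 3562 central steps lay above and 3955 below the basal step. Leaving out 1 central library gave 8074 to 9697 higher and 6005 to 7108 lower, and leaving out 1 basal library 10409 to 10619 and 7963 to 8608. Over all 12 such fits, 4975 to 6905 steps lay above and 4987 to 7349 below. Higher against lower calls were 10768 and 7736 with DESeq2's size factors and 9497 and 10177 with upper quartile scaling.

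Replicate numbers did not pair the libraries (correlations of deviations between same-numbered central libraries 0.016, 0.013 and -0.069), and with a replicate block 9896 models were higher and 8721 lower, and 5690 steps lay above and 6622 below. For sucrose synthase 1 the difference between positions reversed with limma on log2(FPKM + 1), to 1.18 (adjusted p = 2.211e-08) from -1.72. The pseudocount shrinks the rise of the near-zero basal values. For named genes, 35 of 1104 central-step results and 22 of 1104 position differences with 1 library left out lost their call. Under the other settings 16 central-step results and 9 position differences lost theirs. The totals of 1104 include genes that were not called in the main fit and had no call to lose.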
